A study of Mus musculus with 18 samples.

Results

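The genes Ptprc, Evi2, Evi2b, Fyb, Stap1, Tbxas1, Cd72, Cd83, Slamf7 and Cd200r1, all active in blood-derived cells, were followed through 3 adipose depots of obese mice with and without caspase-6. These 10 of the 25124 genes in each count table were chosen by name, because each was lower in the caspase-6 knockout in every depot. The fall itself was therefore the basis of the choice and is given as a description, without a test. The questions were how large the fall was in each depot, and whether each gene fell in step with Ptprc, which marks leukocytes as a whole. All 10 were found by symbol in all 3 tables, and all 10 passed the filter on low counts in each depot, so no member was lost.

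The mice were male, on a C57BL/6J background, and were either WT or carried a whole-body deletion of caspase-6 (C6KO); both came from crosses of heterozygous parents. Both genotypes received the same high-fat diet, with 60% of calories from fat, for 12 weeks from an age of 10 to 14 weeks, and were fasted for 10 h before tissue was taken. PolyA RNA was sequenced from 2 white depots, the inguinal (iWAT) and the epididymal (eWAT), and from brown fat (BAT). Each genotype had 3 libraries in each depot, which gives 18. The deletion was present in every cell type, leukocytes and adipocytes alike, and no lean group was part of these data, so the values describe obese tissue only. The labels do not tie a library to an animal, and the p-values measure the spread between these libraries.

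Reads assigned to exons of genes summed to between 16506034 and 19043523 per iWAT library, between 16717201 and 19139694 per eWAT library and between 7803108 and 12428683 per BAT library. Casp6, the deleted gene, had 342, 338 and 289 counts in WT against 99, 112 and 141 in C6KO in iWAT, 322, 422 and 331 against 100, 124 and 74 in eWAT, and 145, 127 and 139 against 26, 65 and 71 in BAT. The groups did not overlap in any depot. Every C6KO library lay below every WT library for 12.2%, 11.2% and 12.1% of all genes in iWAT, eWAT and BAT. With edgeR's quasi-likelihood test, which decides the calls below, Casp6 had adjusted p = 0.075, 0.013 and 0.067 in the same order. Casp6 thus passed in eWAT only, and the test missed the deleted gene in iWAT and BAT. A pair of libraries stood apart in ways that touch the results below. In iWAT the C6KO replicate 3 held 1037 CPM (counts scaled by library size) of a list of 24 pan-leukocyte genes, against 420 and 371 CPM in the other C6KO libraries and 1392 to 1580 CPM in WT. In BAT the WT replicate 2 held 112 CPM of a B cell marker list against 2.90 to 5.60 CPM in the other BAT libraries, 53.0 CPM of a T cell list against 2.98 to 8.40 CPM, and 29026 CPM of a skeletal muscle list against 36.3 to 5687 CPM. Several results that rest on either library are given with and without it. The differences of the Ptprc fall between depots and the single partner genes called in BAT are given with all libraries only.

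Ptprc encodes CD45, a transmembrane tyrosine phosphatase carried by all nucleated blood-derived cells. It removes the inhibitory phosphate from kinases of the Src family and so sets the threshold of antigen and Fc receptor signalling. The other genes act further out in the same cells. Fyb and Stap1 encode adaptors, which hold signalling proteins together; Tbxas1 encodes thromboxane A synthase; Cd72, Cd83, Slamf7 and Cd200r1 encode surface proteins that restrain or shape the response to a contact; and Evi2 and Evi2b lie inside an intron of Nf1 and are transcribed against it. In obesity, macrophages are the main leukocytes to gather in white adipose tissue. In bulk tissue fewer leukocytes and less RNA per leukocyte cannot be told apart.

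The start sites of the members were compared for letters that factors of blood cells are known to bind, since the genes moved together. RefSeq windows on GRCm38.p6, which is the mm10 build of the count tables, were matched for 7 members, namely Ptprc with a pair of start sites and Evi2, Evi2b, Fyb, Tbxas1, Cd72 and Slamf7 with 1 each. In the 250 bases before the start, AGGAAGT, a sequence bound by ETS factors, was read on either strand in Ptprc, Evi2b and Cd72, in 4 of the 8 windows, and in 7.69% of 32851 windows of the same length across all genes. The windows of the pair of Ptprc start sites overlap, and 1 match lies in both. By gene the letters were found for 3 of the 7 members. The inner start site of Ptprc is that of the counted transcript. Its only match is the shared one, at -237, and 132 of the 150 bases nearest to it lie in annotated exons. GAGGAA, which overlaps the ETS match in Cd72 and is contained in many sites of the myeloid factor PU.1, was found in Ptprc, Evi2, Fyb, Tbxas1 and Cd72, in 5 of 8 windows against 23.3% of all. TGANTCA, read by AP-1 factors, was found for Tbxas1 and Slamf7 against 6.75% of all windows, and TGTGGT, part of the RUNX motif, was found in none of the 8 against 14% of all. The Slamf7 window lies before a start at 171648999, whereas its counted transcript, on the minus strand, starts at 171653037. That window therefore lies inside the counted gene model. The motifs were picked after the sequences had been seen. These are matches of letters only, and no binding was measured. The 150 bases before the start are shown for the 3 genes with the ETS letters, 5′ to 3′ on the strand of the gene, with those letters on either strand in capitals. They lie at chr1:138175306-138175455 (minus strand) before the outer start site of Ptprc, at chr11:79523763-79523912 (minus strand) before Evi2b and at chr4:43454627-43454776 (minus strand) before Cd72.
Ptprc: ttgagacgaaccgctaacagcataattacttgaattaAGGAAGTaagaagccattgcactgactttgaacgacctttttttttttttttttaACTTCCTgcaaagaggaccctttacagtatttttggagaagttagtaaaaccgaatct
Evi2b: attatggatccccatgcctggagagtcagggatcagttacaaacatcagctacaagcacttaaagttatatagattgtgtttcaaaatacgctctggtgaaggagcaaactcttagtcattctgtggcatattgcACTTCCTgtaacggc
Cd72: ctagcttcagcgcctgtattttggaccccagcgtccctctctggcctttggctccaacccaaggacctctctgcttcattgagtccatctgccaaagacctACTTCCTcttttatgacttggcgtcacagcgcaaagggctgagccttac

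Ptprc was lower in C6KO in each depot, by least in eWAT. In iWAT the 3 WT libraries had 61.4, 76.3 and 68.9 CPM, and the C6KO libraries had 19.7, 16.8 and 47.1 CPM. The eWAT libraries held 282, 403 and 316 CPM for WT and 216, 186 and 252 CPM for C6KO. The BAT libraries held 29.6, 79.2 and 31.6 CPM for WT and 15.7, 10.4 and 10.5 CPM for C6KO. No C6KO library reached the lowest WT library in any depot, although the C6KO replicate 3 of iWAT stood well above the other C6KO libraries and the WT replicate 2 of BAT well above the other WT libraries. On the log2 scale the fitted difference was -1.31 (SE 0.39), -0.61 (SE 0.16) and -1.94 (SE 0.43) in the inguinal, epididymal and brown depot, which left 40.4%, 65.3% and 26.0% of the WT level. Without the WT replicate 2, Ptprc fell by 1.33 on the log2 scale in BAT, and without the C6KO replicate 3 it fell by 1.94 in iWAT.

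**Figure D1:**
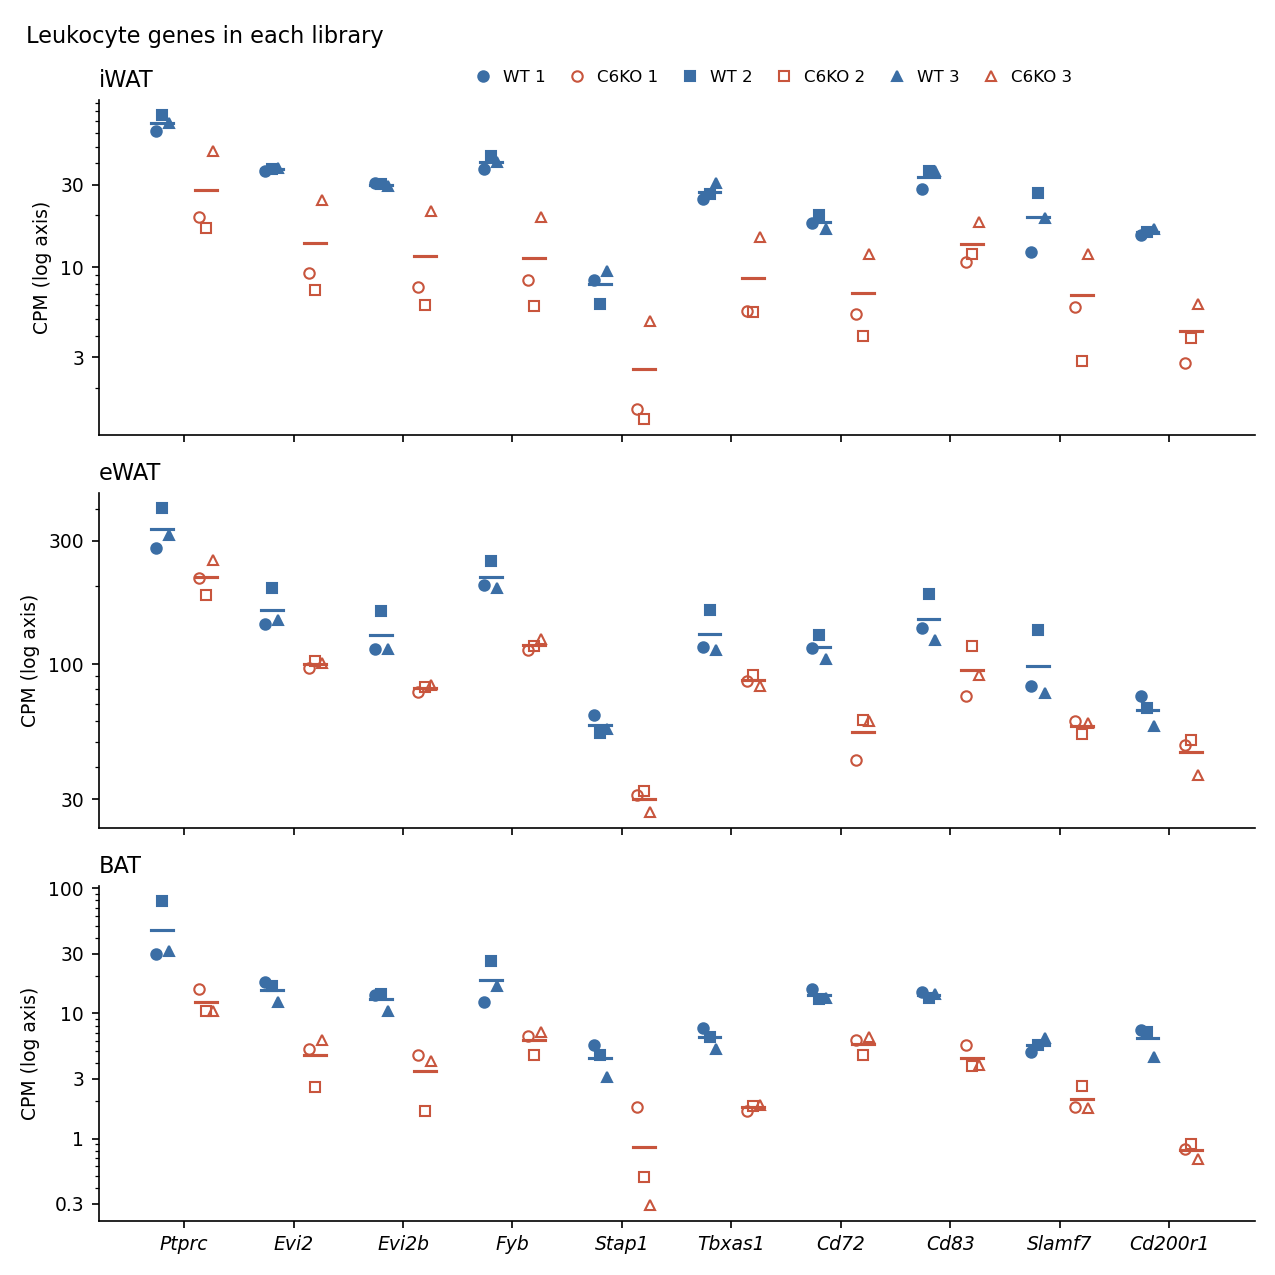
Level of the 10 genes in each library, in CPM on a log axis, with 1 panel per depot. Filled blue symbols are WT and open red symbols C6KO, the symbol shape gives the replicate number, and short lines are group means. The C6KO libraries lie below all WT libraries for all 10 genes in each depot, and the C6KO replicate 3 (open triangles) is the highest C6KO library of every gene in iWAT.

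All 10 genes were lower in C6KO in all 3 depots, and none of the 30 comparisons had overlapping groups. This is what the genes were chosen for, and it is to be set beside the share of all genes with every C6KO library below every WT library, which was 12.2% for iWAT, 11.2% for eWAT and 12.1% for BAT. The median difference of the members on the log2 scale was -1.47 in iWAT (range -1.90 to -1.30), -0.69 in eWAT (range -1.10 to -0.55) and -1.80 in BAT (range -2.94 to -1.29). The median of all genes tested was 0.027, -0.0060 and -0.032. With edgeR's quasi-likelihood test and the thresholds of the study (adjusted p below 0.05 over all genes and a change of at least 1.5-fold), 0, 3 and 7 members were called lower in iWAT, eWAT and BAT, where 0.0206%, 0.208% and 1.07% of all genes were called lower. With DESeq2 the counts were 10, 9 and 10 members, beside 3.42%, 1.23% and 2.65% of all genes. Nothing is read from these counts, since the same contrast chose the members.

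The adaptor genes had larger differences than Ptprc in both white depots. Fyb, which couples antigen receptors to integrins, had 37.2, 44.2 and 40.7 CPM in WT iWAT and 8.40, 5.95 and 19.5 CPM in C6KO iWAT. In eWAT it had 203, 250 and 197 CPM against 114, 118 and 125 CPM, and in BAT 12.4, 26.1 and 16.6 CPM against 6.62, 4.64 and 7.11 CPM. Its log2 difference was -1.85 (SE 0.41), -0.87 (SE 0.12) and -1.59 (SE 0.31). The eWAT libraries of each genotype lay close together, and the fall was correspondingly well defined there. Stap1, an adaptor that binds the CSF1 receptor and Tec kinases, had few reads in iWAT, with 143, 104 and 171 counts in WT against 27, 24 and 86 in C6KO. In eWAT it had 63.8, 54.3 and 56.2 CPM in WT and 31.0, 32.3 and 26.6 CPM in C6KO. In BAT only 43, 53 and 31 counts remained in WT and 15, 6 and 3 in C6KO, so that its difference of -2.41 (SE 0.61) there rested on few reads.

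Tbxas1, the last enzyme on the way from arachidonic acid to thromboxane A2, stood at 24.9, 26.5 and 30.6 CPM in WT iWAT and 5.60, 5.52 and 15.0 CPM in C6KO iWAT. In eWAT it had 117, 161 and 114 CPM against 86.2, 90.4 and 82.6 CPM. In BAT it had 7.62, 6.52 and 5.20 CPM against 1.66, 1.82 and 1.85 CPM. Its log2 difference was -1.65 (SE 0.39), -0.60 (SE 0.14) and -1.85 (SE 0.31). The 3 C6KO libraries of BAT lay close together, below all WT libraries.

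Cd72, an inhibitory lectin-type receptor best known from B cells and also present on macrophages, had 18.1, 20.0 and 16.6 CPM in WT iWAT and 5.32, 3.99 and 11.9 CPM in C6KO. In eWAT it had 116, 129 and 104 CPM against 42.3, 60.6 and 60.3 CPM, and in BAT 15.8, 13.0 and 13.4 CPM against 6.15, 4.64 and 6.42 CPM. Its log2 difference was -1.37 (SE 0.37), -1.10 (SE 0.15) and -1.29 (SE 0.22). It was the member with the largest fall in eWAT and the smallest in BAT.

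Cd200r1, an inhibitory receptor of myeloid cells for the ligand CD200, had 15.4, 15.9 and 16.6 CPM in WT iWAT and 2.80, 3.88 and 6.12 CPM in C6KO. In eWAT it had 75.0, 67.6 and 57.3 CPM against 48.7, 50.7 and 37.1 CPM. The BAT libraries held 57, 80 and 45 counts for WT and 7, 11 and 7 for C6KO. The log2 difference was -1.90 (SE 0.28), -0.55 (SE 0.15) and -2.94 (SE 0.37), the largest of the 10 in iWAT and in BAT and the smallest in eWAT. The C6KO level was 13.0% of WT in BAT and 68.3% of WT in eWAT.

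Cd83, a marker of mature dendritic cells that keeps MHC class II and Cd86 at the surface, had 28.3, 36.0 and 36.0 CPM in WT iWAT and 10.8, 11.9 and 18.2 CPM in C6KO. Its log2 difference was -1.30 (SE 0.22), -0.66 (SE 0.20) and -1.68 (SE 0.24) in iWAT, eWAT and BAT. The count tables of the white depots and of BAT used different transcripts of Cd83, of 2134 and 2127 bases. Slamf7, a self-binding receptor of the SLAM family, had 12.3, 26.8 and 19.3 CPM in WT iWAT against 5.88, 2.84 and 11.9 CPM in C6KO, where the highest C6KO library came within 1 CPM of the lowest WT library. Its log2 difference was -1.50 (SE 0.52), -0.77 (SE 0.21) and -1.44 (SE 0.33).

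Evi2 and Evi2b could not be counted as independent genes. On chromosome 11 of mm10 the Evi2 model spans 79513385 to 79530609 on the minus strand, Evi2b spans 79513385 to 79523762 and Evi2a spans 79526561 to 79530609, all inside Nf1 on the plus strand at 79339892 to 79581609. Reads where these models overlap may count for more than 1 of them, and nothing in the sources used here states that strand was used. Evi2 had 36.2, 37.1 and 37.5 CPM in WT iWAT and 9.30, 7.37 and 24.5 CPM in C6KO, and Evi2b had 30.6, 30.3 and 29.5 CPM and 7.68, 6.01 and 21.1 CPM. Their log2 differences were -1.43 and -1.38 for iWAT, -0.70 and -0.69 for eWAT and -1.74 and -1.90 for BAT. Nf1, which encodes the Ras regulator neurofibromin, had 1041, 1180 and 1293 counts in WT iWAT against 1419, 1394 and 1093 in C6KO, and its log2 difference was 0.10 (SE 0.13), 0.06 (SE 0.13) and 0.15 (SE 0.20) in iWAT, eWAT and BAT, with edgeR adjusted p = 0.73, 0.86 and 0.80. Without Evi2 and Evi2b the median of the members was -1.57, -0.72 and -1.76 in the 3 depots.

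**Figure D2:**
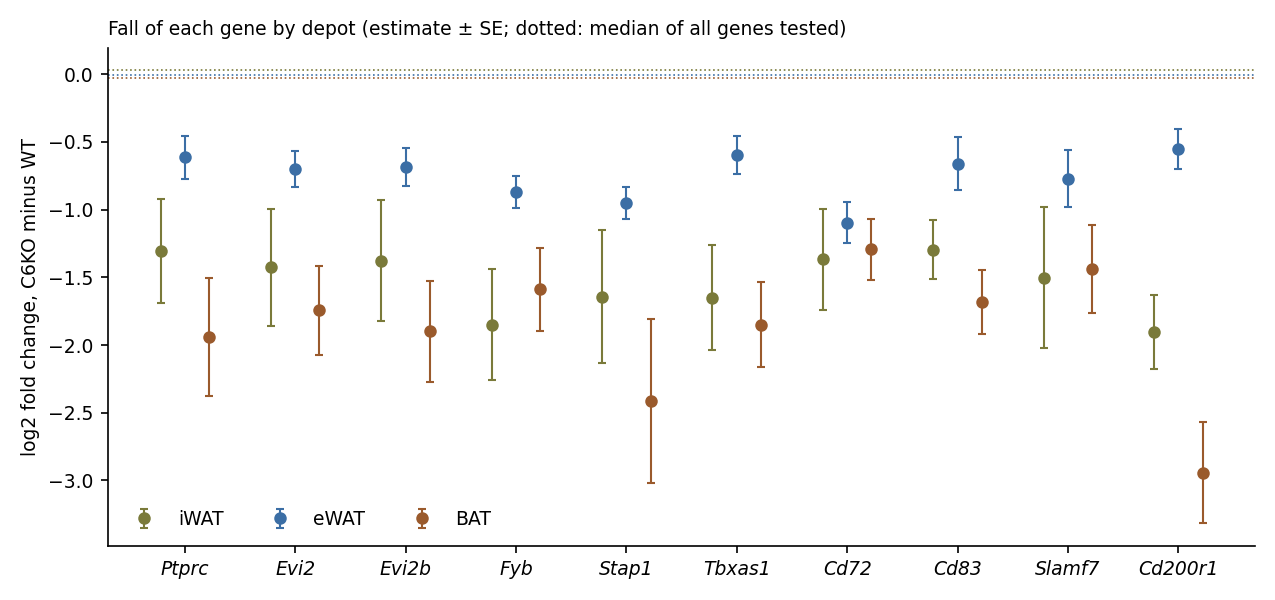
Fitted log2 difference of C6KO minus WT for each gene, with its standard error, in iWAT (olive), eWAT (blue) and BAT (brown); 3 libraries per genotype. Dotted lines mark the median of all genes tested in each depot, near 0. All 10 genes have their smallest fall in eWAT, and Cd200r1 in BAT, at -2.94, is the largest fall shown.

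The fall was smallest in eWAT for all 10 genes and largest in BAT for 7 of them, with Fyb, Cd72 and Slamf7 largest in iWAT. In a fit of all 18 libraries the fall of Ptprc differed between BAT and eWAT by -1.33 on the log2 scale (approximate 95% interval -2.39 to -0.27), between eWAT and iWAT by 0.69 (-0.34 to 1.72) and between BAT and iWAT by -0.64 (-1.70 to 0.43). The BAT fall of Ptprc rested in part on the WT replicate 2, with 899 counts against 229 and 316 in the other WT libraries. Without that library the BAT fall was smaller, as given above, and its differences from the other depots are not given. For Cd200r1 the differences in the same order of depots were -2.40 (-3.17 to -1.63), 1.35 (0.72 to 1.98) and -1.05 (-1.84 to -0.26). For Cd72 they were -0.21 (-1.003 to 0.59), 0.27 (-0.50 to 1.04) and 0.06 (-0.76 to 0.89), which does not show that its fall was the same. The choice of the genes used these falls, so all these intervals describe the spread between libraries and are not read as tests. The order of iWAT and BAT rested on 1 library. Without the C6KO replicate 3 of iWAT the median fall of the members there was -2.18, larger than in BAT.

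Whether the genes fell in step with Ptprc was read within each library, as the log2 ratio of the count of a gene to the count of Ptprc (1 added to each), which does not depend on how libraries are scaled. The choice used the falls of the members and of Ptprc, so the changes of the ratio are a description without a test. In iWAT 8 of the 9 other members had a lower ratio in C6KO, with a median change of the ratio of -0.20 and a range of -0.57 to 0.13. Fyb and Tbxas1 had ratios that did not overlap between genotypes. The share of all genes with ratios apart in this way was not counted, so nothing is read from the lack of overlap. Fyb had log2 ratios of -0.72, -0.79 and -0.76 in WT and -1.22, -1.49 and -1.27 in C6KO, a change of -0.57 (SE 0.08). Tbxas1 had -1.30, -1.53 and -1.17 in WT and -1.80, -1.60 and -1.65 in C6KO. Cd83 was the exception, with a change of 0.13.

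In eWAT the ratios changed by smaller amounts. The median change of the ratio was -0.076, 7 of 9 members were lower, and the ratios of the genotypes overlapped for all 9. Cd72 changed by -0.50, Stap1 by -0.34 and Fyb by -0.25, whereas Tbxas1 and Cd200r1 changed by 0.03 and 0.06. Cd72 had ratios of -1.28, -1.64 and -1.60 in WT and -2.35, -1.61 and -2.06 in C6KO, where the second C6KO library lay among the WT libraries.

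In BAT the answer depended on the WT replicate 2, the library with the high lymphocyte and muscle markers. With it the median change of the ratio was 0.011, with 3 of 9 members lower and a range of -0.997 (Cd200r1) to 0.51 (Cd72). That library had 899 Ptprc counts against 229 and 316 in the other WT libraries, and the lowest WT ratio of all 9 genes. The Cd72 ratio, for example, was -0.90, -2.60 and -1.23 in the 3 WT libraries and -1.34, -1.16 and -0.70 in C6KO. Without that library 7 of 9 members were lower relative to Ptprc, the median change was -0.40, and the range was -1.36 (Cd200r1) to 0.10 (Fyb). The ratios of all 9 overlapped between genotypes when all libraries were used. With the mean log2 count of the 24 pan-leukocyte genes in place of Ptprc, the median change was -0.38, -0.20 and -0.30 in iWAT, eWAT and BAT. The members were named for a fall in every depot and the list genes were not. The choice therefore favours a lower ratio to the list, and nothing is read from it.

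**Figure D3:**
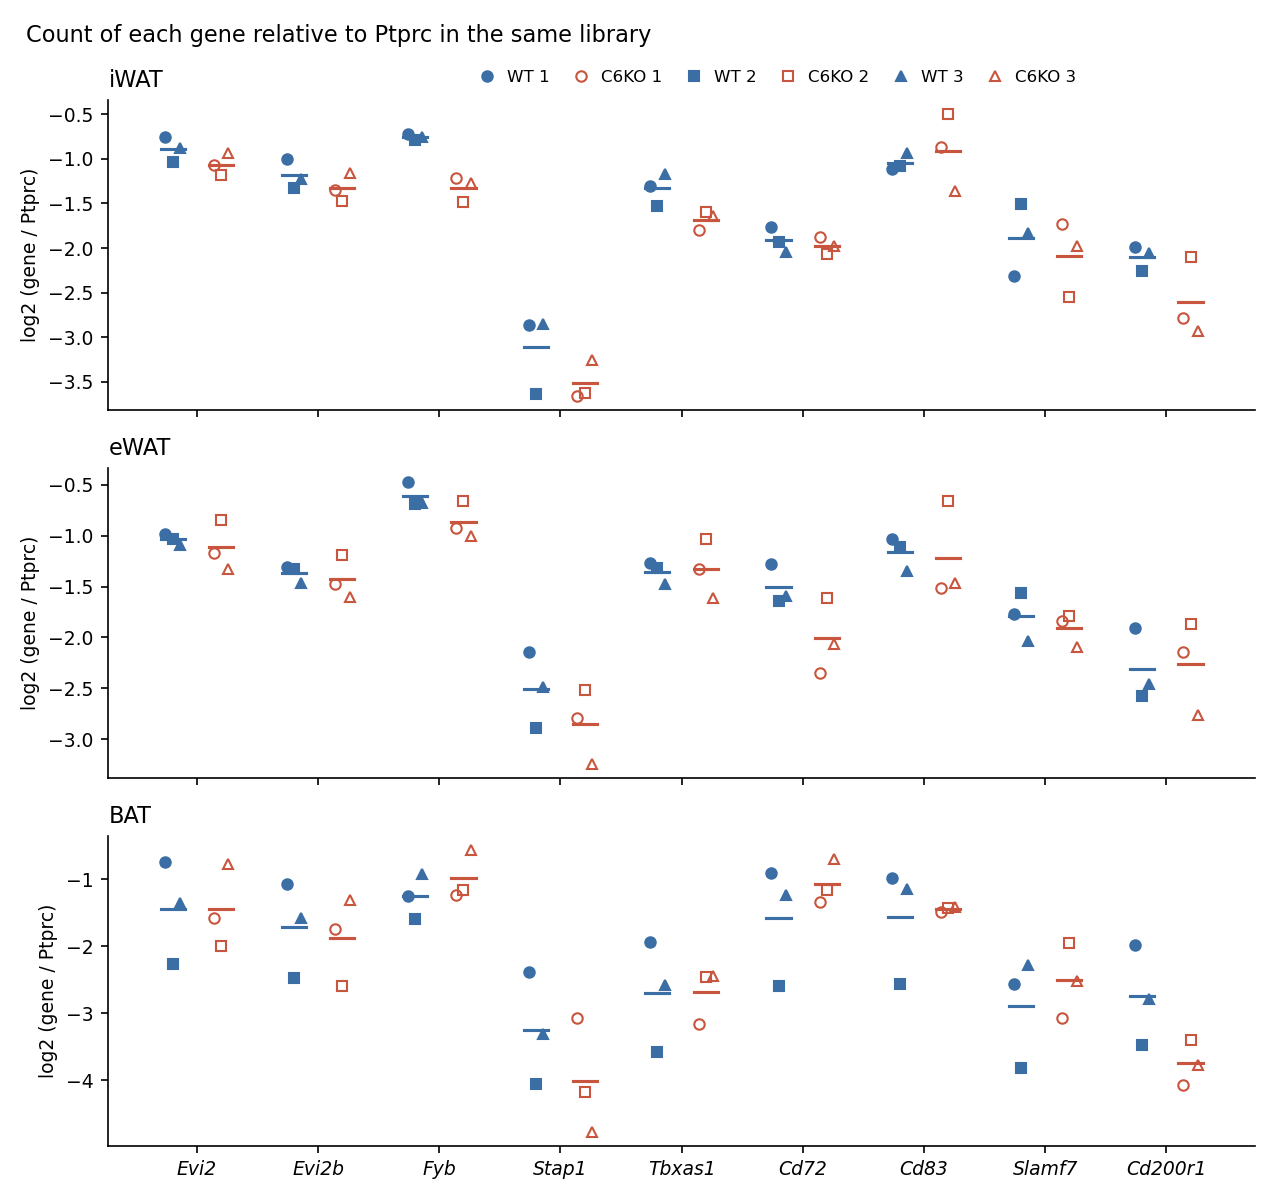
Log2 ratio of the count of each of 9 genes to the Ptprc count of the same library (1 added to each count), with 1 panel per depot, filled blue symbols for WT, open red symbols for C6KO, shapes for replicate numbers and short lines for group means. In iWAT the genotypes separate for Fyb and Tbxas1; in BAT the WT replicate 2 (filled squares) has the lowest WT ratio of each of the 9 genes.

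The level between depots was compared over both genotypes together, a contrast that leaves out the difference that chose the genes. All 10 were higher in eWAT than in iWAT, by 4.91-fold (Evi2b) to 8.27-fold (Stap1), with edgeR adjusted p of at most 5.5e-06, and no eWAT library overlapped any iWAT library. For comparison, 17.0% of all 15866 genes were called higher in eWAT. All 10 were also lower in BAT than in eWAT, by 7.36-fold (Cd72) to 26.0-fold (Tbxas1), with adjusted p of at most 8.9e-08 and no overlap, where 28.2% of genes were called lower in BAT. Between BAT and iWAT, 9 of 10 were lower in BAT, beside 22.7% of all genes, and the libraries of the 2 depots overlapped for each gene. The share of all genes without overlap between depots was not counted. Tbxas1 was 4.20-fold lower in BAT than in iWAT (log2 difference -2.07, SE 0.23, edgeR adjusted p = 1.2e-06). Ptprc was 1.70-fold lower (log2 difference -0.77, SE 0.27, edgeR adjusted p = 0.024). Cd72 had a difference of -0.22 (SE 0.21, edgeR adjusted p = 0.37), which did not pass the test. Within WT alone, 7 members were called lower in BAT than in iWAT, and Ptprc (-0.45, adjusted p = 0.345) and Stap1 (-0.74, adjusted p = 0.18) were not among them. The call for Ptprc was also lost without any 1 of the C6KO replicate 3 of iWAT, the WT replicates 1 and 3 of BAT and the C6KO replicates 2 and 3 of BAT (adjusted p = 0.054 to 0.083).

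The group means fell in 1 order for 8 of the 10 genes, from eWAT of WT and eWAT of C6KO through iWAT of WT, BAT of WT and iWAT of C6KO to BAT of C6KO. For Tbxas1 and Slamf7 the C6KO level of iWAT exceeded the WT level of BAT. Ptprc had 302 ± 54.0 CPM (SD, n = 3) in eWAT of WT and 197 ± 28.4 CPM in eWAT of C6KO on the common scale of all 18 libraries. It had 69.6 ± 7.76 CPM in iWAT of WT, 50.8 ± 28.8 CPM in BAT of WT, 28.1 ± 17.0 CPM in iWAT of C6KO and 13.3 ± 3.21 CPM in BAT of C6KO. From iWAT of WT downwards each neighbouring pair of Ptprc overlapped in its libraries. For 9 of the 10 genes, all but Cd72, the libraries of BAT of WT and iWAT of C6KO overlapped. Per kilobase of transcript, the WT level in eWAT ran from 24.8 CPM for Slamf7 and 35.4 for Cd200r1 to 70.1 for Cd83 and 78.1 for Cd72, with Ptprc at 60.3.

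**Figure D4:**
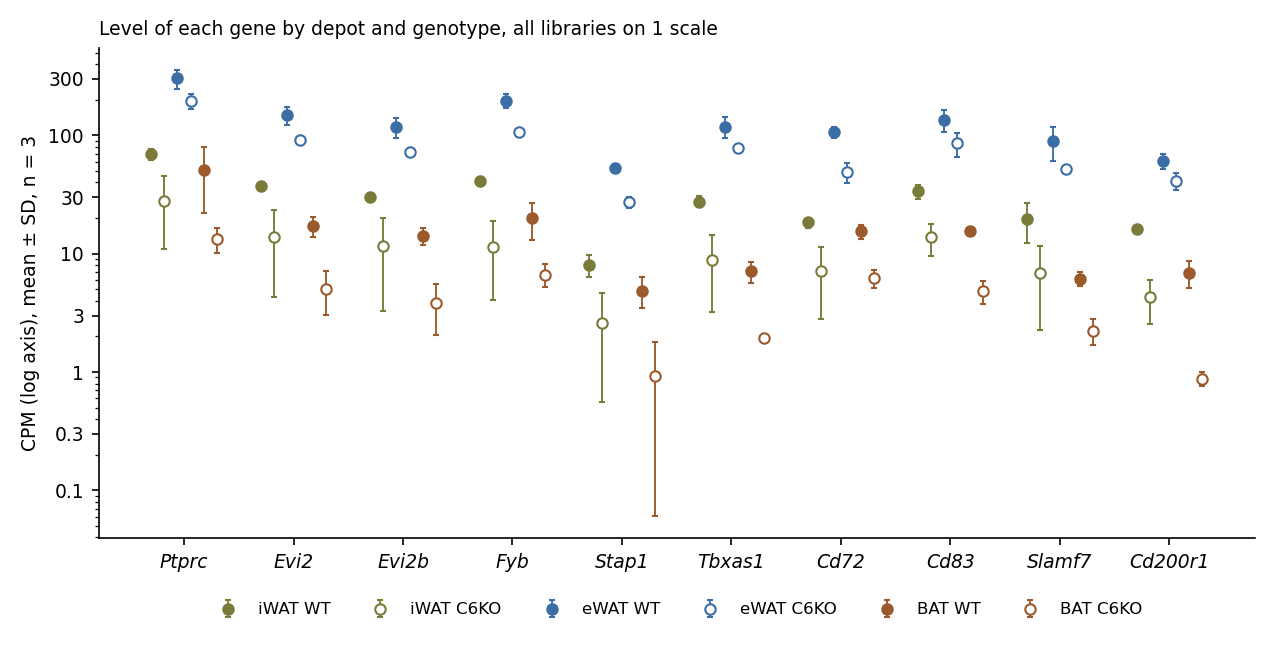
Mean level of each gene in the 6 groups with its SD (n = 3), in CPM on a log axis, all 18 libraries scaled together. Filled symbols are WT and open symbols C6KO, in olive for iWAT, blue for eWAT and brown for BAT. Both eWAT groups lie above the groups of the other depots for all 10 genes.

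A second view of Ptprc used only the differences among libraries of the same depot and genotype, which the choice of the genes did not use. Each library was expressed as its log2 deviation from its group mean, and each gene was correlated with Ptprc over the 18 libraries, with an exact permutation of libraries within groups (46656 arrangements, two-sided). All 9 members had a positive r, with a median of 0.56 and a range of 0.44 to 0.88, against a median of -0.023 over all 15865 genes. Fyb had Pearson r = 0.88 (exact permutation p = 0.0032) and Spearman rho = 0.82 (p = 0.0063), and Evi2b had r = 0.67 (p = 0.025) and rho = 0.62 (p = 0.042). No member passed after Benjamini-Hochberg adjustment over all genes (adjusted p = 0.33 for Fyb and 0.56 for Evi2b), and neither did any other gene, so the share called was 0%. Of the members, 2 had an unadjusted p below 0.05. An r of at least 0.44, the lowest among the members, was found for 13.8% of all genes.

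The relation rested largely on iWAT. The libraries with the largest deviations of Ptprc were the C6KO replicate 3 of iWAT (0.92 above its group mean on the log2 scale) and the WT replicate 2 of BAT (0.87 above). In the first of these Fyb, Stap1 and Evi2b also lay above their group means, by 0.98, 1.17 and 1.09. In the second Fyb was 0.52 above its mean, whereas Evi2 was 0.06 above, Tbxas1 stood at -0.01 and Cd72 at -0.15. Without both libraries r was 0.55 for Fyb and 0.52 for Evi2b, 0.08 for Tbxas1 and -0.30 for Cd200r1, with a median of 0.41. Within depots the median r of the members over 6 libraries was 0.97, 0.50 and 0.18 for iWAT, eWAT and BAT, with ranges of 0.84 to 0.99, -0.90 to 0.77 and -0.30 to 0.79. Stap1 had r = -0.90 in eWAT against 0.89 in iWAT. Within 1 depot only 36 arrangements exist, and no p is given.

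**Figure D5:**
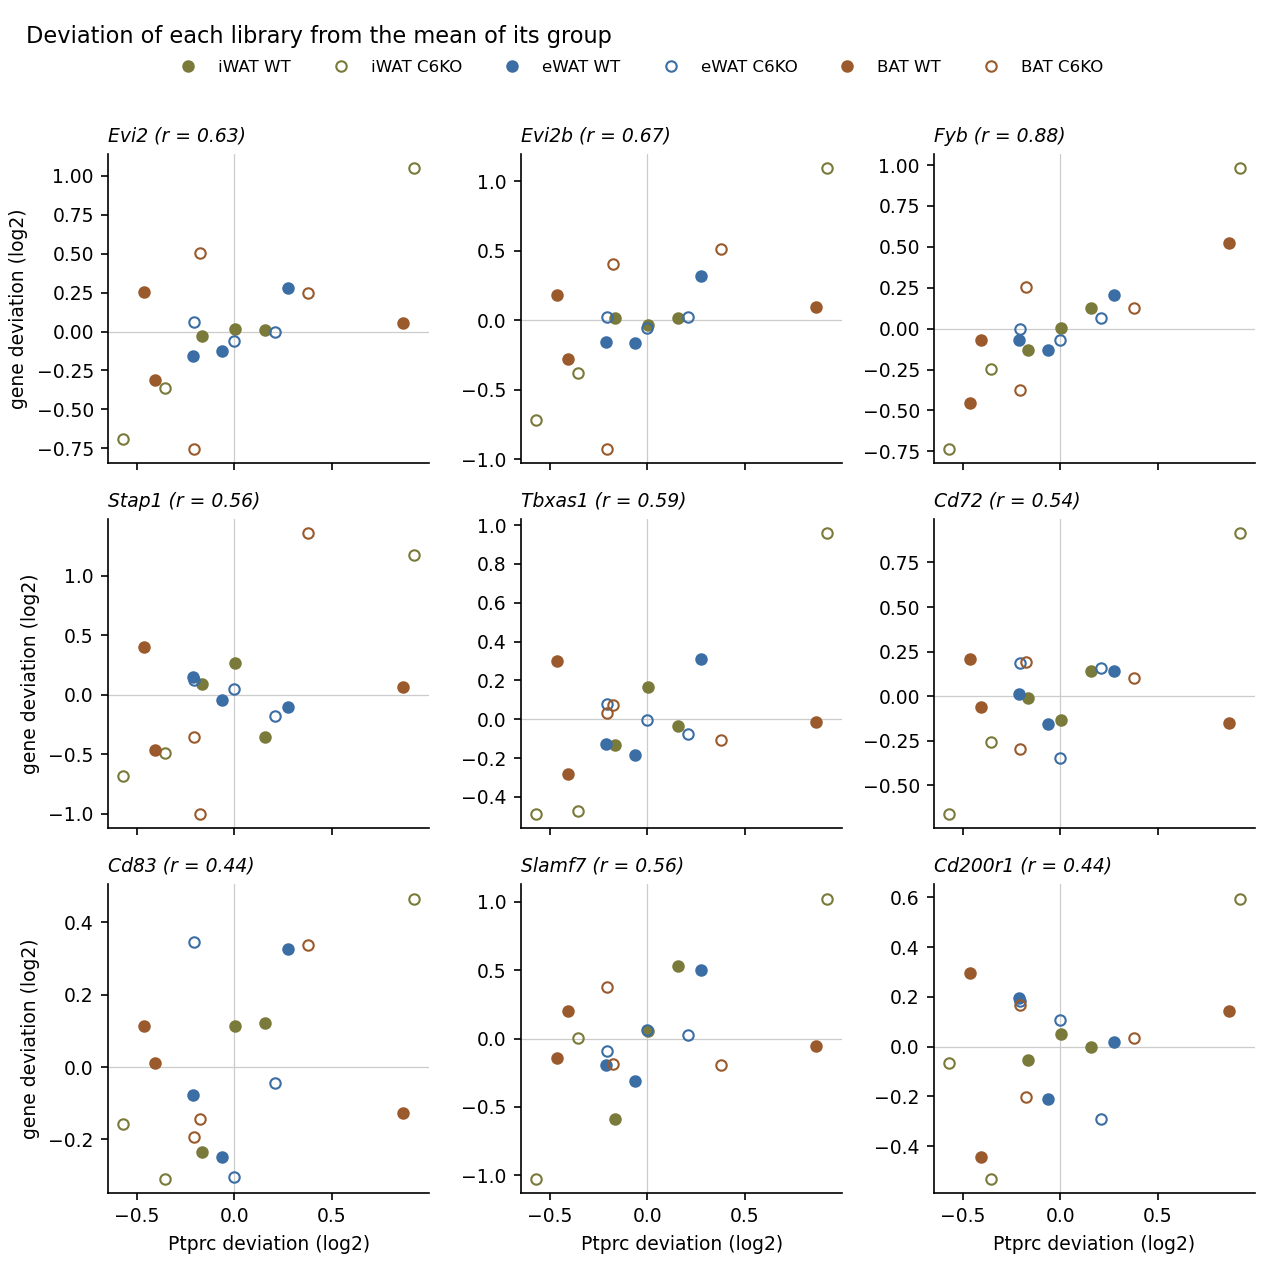
Log2 deviation of each of 9 genes from its group mean (vertical) against that of Ptprc (horizontal) in the 18 libraries, with Pearson's r above each panel; colours give the depot, filled symbols WT and open symbols C6KO. The open olive point at the far right is the C6KO replicate 3 of iWAT, which lies high for all 9 genes, and the filled brown point beside it is the WT replicate 2 of BAT, which is near 0 for all but Fyb.

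Among the genes most like Ptprc by this measure, of those with a mean of at least 1 CPM in each depot, were Myo1g (r = 0.94), Il10ra (0.94), Meak7 (0.93) and Ifi209 (0.92), each over 18 libraries and given as a description. Il10ra encodes a subunit of the interleukin-10 receptor. Of the members, Fyb ranked highest, in place 15 of 15865. Without the 2 libraries named above, r was 0.79 for Il10ra and 0.65 for Myo1g.

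Partners of the members, which the choice did not name, were tested in the same fits. Their lists were drawn up with earlier results of these data known, so their calls are not independent support. Of 118 partner genes, 106, 111 and 99 passed the filter for iWAT, eWAT and BAT, and their median log2 difference was -0.80, -0.41 and -0.92. With edgeR, which decides the word called in the account of these genes, 14 were called lower in BAT and 0 in iWAT and eWAT, beside 0.0206%, 0.208% and 1.07% of all genes in iWAT, eWAT and BAT. At an unadjusted p below 0.05 and 1.5-fold, 51, 12 and 58 partner genes were lower, beside 977 of 14533, 416 of 14889 and 853 of 13595 genes in all. DESeq2 called 31, 4 and 45 lower, beside 3.42%, 1.23% and 2.65% of all genes. Of the partner genes 1 was called higher with edgeR, in eWAT, where genes called higher made up 0.00688%, 0.537% and 0.169% of all genes in iWAT, eWAT and BAT. In BAT the 14 became 9 without WT replicate 1 or 3, 12 without WT replicate 2, and 6, 4 and 3 without C6KO replicates 1, 2 and 3, and in eWAT the 0 became 2 without C6KO replicate 2. Without the C6KO replicate 3 of iWAT, edgeR called 57 of 107 lower in that depot, where 6.43% of all genes were then called lower.

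Of the 24 pan-leukocyte genes, all had estimates below 0 in each depot, with medians of -1.19, -0.46 and -1.74 for iWAT, eWAT and BAT, beside -1.31, -0.61 and -1.94 for Ptprc. In BAT 8 were called lower: Itgb2, Lcp1, Cd52, Nckap1l, Cd53, Coro1a, Laptm5 and Cd48. Itgb2, the shared chain of the leukocyte integrins, had 275, 485 and 311 counts in WT BAT and 78, 91 and 115 in C6KO BAT (log2 difference -1.97, SE 0.21, edgeR adjusted p = 0.0046). Lcp1, an actin bundler of leukocytes, had 782, 1135 and 910 counts against 295, 238 and 249. In the white depots the smallest unadjusted p belonged to Inpp5d (-0.93) and Vav1 (-1.42) in iWAT and to Dock2 (-0.55) and Hcls1 (-0.51) in eWAT, none of which passed with edgeR (adjusted p = 0.15, 0.16, 0.055 and 0.057). DESeq2 called 12, 0 and 17 of the list lower in iWAT, eWAT and BAT. The 0 in eWAT rests in part on the 1.5-fold minimum, which Dock2 and Hcls1 missed (DESeq2 adjusted p = 0.00075 and 0.0022). Cd52, with the largest fall of the list there (-0.96), had a DESeq2 adjusted p of 0.18.

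Among the kinases and regulators around Ptprc, of 12 tested in BAT only Lgals3, a galectin that binds CD45 sugars and is abundant in macrophages, was called lower, with 1198, 1159 and 1160 counts in WT against 209, 104 and 192 in C6KO (log2 difference -2.85, SE 0.39, edgeR adjusted p = 0.027). The list had medians of -0.39, -0.28 and -0.56 in iWAT, eWAT and BAT. Fyn stood at -0.41 in eWAT, and Ptpn6 and Lyn stood at -1.48 and -0.39 in iWAT, without passing with edgeR. With DESeq2 2, 0 and 4 of the list were called lower, Ptpn6 in iWAT among them (DESeq2 adjusted p = 0.0037). Among the partners of Fyb, Apbb1ip, which recruits talin to integrins, was called lower in BAT (61, 139 and 85 counts against 24, 33 and 31; log2 difference -1.74, SE 0.28, edgeR adjusted p = 0.025). It stood at -1.004 in iWAT and -0.52 in eWAT (adjusted p = 0.17 and 0.052). Lcp2 (-1.02) in iWAT and Evl in eWAT (-0.47) and BAT (-0.75) did not pass with edgeR. DESeq2 called 3, 0 and 1 of the list lower, Lcp2 in iWAT among them (DESeq2 adjusted p = 0.032).

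Among the partners of Stap1, no gene was called in any depot (0 of 8, 8 and 7 tested); 3, 1 and 3 were lower at an unadjusted p below 0.05 and 1.5-fold, and DESeq2 called 3, 0 and 2. Csf1r, the receptor that maintains macrophages, stood at -1.26, -0.55 and -0.78 (adjusted p = 0.18, 0.074 and 0.071), Tec at -0.998 in iWAT, Btk at -0.43 in eWAT and Csf1 at -0.69 in BAT. Around Tbxas1, the prostaglandin D synthase Hpgds was called lower in BAT, with 82, 114 and 134 counts in WT against 37, 21 and 27 in C6KO (log2 difference -1.97, SE 0.35, edgeR adjusted p = 0.033). Hpgds stood at -1.85 in iWAT (adjusted p = 0.23). Ltc4s, the leukotriene C4 synthase, went the other way in eWAT, with 1141, 1067 and 1022 counts in WT against 1836, 2045 and 1481 in C6KO (log2 difference 0.72, SE 0.12, edgeR adjusted p = 0.044), and this call was lost without any 1 of the WT replicates or the C6KO replicate 1, and in a fit of all 18 libraries. In iWAT Ltc4s stood at 0.41 and in BAT at -0.31. Ptger4 stood at -0.71 in iWAT and -0.55 in eWAT, and Hpgd at -0.75 in BAT. DESeq2 called 1, 0 and 3 of this list lower.

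Around Cd72, the adaptor Blnk was called lower in BAT (89, 129 and 67 counts against 25, 43 and 25; log2 difference -1.72, SE 0.31, edgeR adjusted p = 0.037). Sema4d, the semaphorin ligand of Cd72, stood at -1.67 (SE 0.70), -0.36 (SE 0.14) and -2.18 (SE 0.67), and it did not pass with edgeR in any depot (adjusted p = 0.30, 0.21 and 0.23), while it passed with DESeq2 in BAT (adjusted p = 0.0039). Plcg2 (-1.14) and Plxnb2 (-0.92) in iWAT, Plxnb1 (-0.71) and Plxnb2 (-0.38) in eWAT and Ptpn6 (-1.26) in BAT were the nearest others. DESeq2 called 5, 1 and 5 of the list lower. Among the partners of Cd83, H2-DMb1, which loads peptide onto MHC class II, was called lower in BAT (67, 129 and 89 counts against 29, 40 and 41; log2 difference -1.43, SE 0.26, edgeR adjusted p = 0.033). March1, the ubiquitin ligase that Cd83 opposes, stood at -1.52 in iWAT and -0.66 in eWAT, Cd74 at -0.95 and -0.98, and H2-Eb1 at -0.79 in BAT, none of them called with edgeR. DESeq2 called 4, 0 and 7 of the list lower, among them March1 and Cd74 in iWAT (DESeq2 adjusted p = 0.0024 and 0.0054) and H2-Eb1 in BAT (0.0032).

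Of the SLAM family and its adaptors, Cd84 and Cd48 were called lower in BAT out of 5 tested. Cd84 had 245, 244 and 210 counts in WT BAT and 35, 37 and 52 in C6KO BAT (log2 difference -2.59, SE 0.27, edgeR adjusted p = 0.0042), a larger estimate than that of Slamf7 itself. Cd84 stood at -0.53 in eWAT, Sh2d1a at -2.45 in eWAT, and Sh2d1b1 and Slamf9 at -1.91 and -1.09 in iWAT, none called with edgeR. DESeq2, with its own filter, called 1, 2 and 6 of the list lower, among them Sh2d1b1 in iWAT (DESeq2 adjusted p = 0.012), Sh2d1a in eWAT (0.029) and Cd84 in BAT. Along the CD200 axis no gene was called (0 of 6 in each depot; 3, 0 and 3 were lower at an unadjusted p below 0.05 and 1.5-fold, and DESeq2 called 3, 0 and 2). Cd200, the ligand of Cd200r1, stood at -0.23 (SE 0.18) in iWAT, 0.17 (SE 0.14) in eWAT and 0.10 (SE 0.22) in BAT, beside -1.90, -0.55 and -2.94 for the receptor. Rasa1 stood at -0.50 in iWAT and -0.47 in eWAT, Cd200r4 at -0.58 in eWAT, and Dok2 and Dok1 at -1.18 and -1.14 in BAT. Evi2a, which overlaps Evi2, stood at -1.36, -0.67 and -1.16, not called with edgeR and called with DESeq2 in both white depots.

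No partner gene had a C6KO effect that differed between depots with edgeR (0 of 112 in each of the 3 comparisons, where 0%, 0.183% and 0.536% of all genes were called). Between eWAT and iWAT 12 had an unadjusted p below 0.05, between BAT and iWAT 11, and between BAT and eWAT 30, where 5.48%, 9.93% and 11.2% of all 15866 genes did. DESeq2 called 0, 0 and 6. Without the C6KO replicate 3 of iWAT, edgeR called 24 of them in at least 1 comparison.

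Markers of cell types had the following levels in WT and then in C6KO. Of the 8 macrophage markers, all tested in each depot, 0, 0 and 3 were called lower in iWAT, eWAT and BAT (7, 2 and 7 at an unadjusted p below 0.05 and 1.5-fold, and 4, 2 and 7 with DESeq2), and their summed level was 1466 to 1638 CPM in WT and 382 to 1120 CPM in C6KO in iWAT. It was 5336 to 6516 CPM and 3641 to 4398 CPM in eWAT, and 575 to 708 CPM and 218 to 324 CPM in BAT. The 7 B cell markers had 0 called of 6, 7 and 2 tested (0, 0 and 1 lower at an unadjusted p below 0.05 and 1.5-fold, and 0, 0 and 1 with DESeq2), with summed levels of 10.8 to 17.4 CPM and 3.33 to 23.2 CPM in iWAT, 39.7 to 251 CPM and 29.6 to 331 CPM in eWAT and 4.91 to 112 CPM and 2.90 to 4.61 CPM in BAT. The 8 T cell markers had 0 called of 8, 8 and 2 tested (0, 1 and 0 lower unadjusted, and 0, 1 and 2 with DESeq2), with 8.66 to 20.2 CPM and 5.52 to 16.8 CPM in iWAT, 31.4 to 101 CPM and 13.8 to 61.4 CPM in eWAT and 4.65 to 53.0 CPM and 2.98 to 6.13 CPM in BAT. The 6 mast cell markers had 0, 2 and 0 called lower of 6, 6 and 5 tested (1, 5 and 2 unadjusted, and 0, 4 and 0 with DESeq2). Their summed level was 54.3 to 77.4 CPM and 37.6 to 63.6 CPM in iWAT, 239 to 351 CPM and 116 to 171 CPM in eWAT, and 33.6 to 62.0 CPM and 24.9 to 32.7 CPM in BAT. The 6 dendritic cell markers had 0, 0 and 1 called lower of 6, 6 and 4 tested (1, 1 and 1 unadjusted, and 1, 0 and 1 with DESeq2), with 112 to 118 CPM and 32.2 to 69.1 CPM in iWAT, 477 to 548 CPM and 309 to 410 CPM in eWAT, and 35.3 to 36.0 CPM and 21.6 to 24.0 CPM in BAT. In BAT only 2 of the 4 dendritic cell estimates were below 0, with a median log2 difference of 0.13 and a range of -3.17 to 0.34. The lower sum there does not describe a fall of the list as a whole. The 5 erythroid markers had 0 called of 5 in each depot (4, 0 and 0 unadjusted, and 1, 0 and 0 with DESeq2), with 178 to 460 CPM and 43.8 to 155 CPM in iWAT, 54.5 to 199 CPM and 86.4 to 466 CPM in eWAT, and 201 to 862 CPM and 69.7 to 536 CPM in BAT. Ly6g, a neutrophil marker, was at 0 in all libraries of all depots, and the eosinophil marker Epx was at 0 in iWAT and BAT. Of the 8 adipocyte markers, all tested in each depot, 0, 2 and 0 were called higher and 0, 0 and 1 lower in iWAT, eWAT and BAT (1, 4 and 1 higher and 0, 0 and 1 lower with DESeq2). They summed to 28392 to 31152 CPM in WT and 37200 to 41569 CPM in C6KO in iWAT, 11515 to 13489 CPM and 15723 to 20130 CPM in eWAT and 15621 to 22868 CPM and 16781 to 19419 CPM in BAT. The part of any of these in the fall of the members was not tested.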

How the data were processed

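RNA-seq libraries of iWAT, eWAT and BAT from WT and C6KO mice (3 per group) were analysed from the gene count tables deposited by the authors, 1 table per depot. Per the study's methods and the labels, the authors aligned reads with STAR to mm10 and counted reads in exons with HOMER, keeping 1 transcript per gene; DESeq2 is also named by the submitters. Versions, annotation and use of strand are not given in the sources used here. The tables hold raw counts, with 0 value columns left unassigned; the transcript kept differed between tables for 2619 genes.

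Counts were tested with edgeR 4.0.16 in R 4.3.3 (TMM scaling, filterByExpr, robust quasi-likelihood fits, Benjamini-Hochberg adjustment), within each depot for genotype and over all 18 libraries for depot; a gene was called at adjusted p below 0.05 and 1.5-fold, and for the difference of the genotype effect between depots without the fold minimum. DESeq2 1.42.0 was the alternative test. CPM values used the TMM library sizes. Correlations were taken on the log2 scale of CPM (prior count 1), and their p-values were adjusted over all genes in place of the members alone. Scripts were tested on simulated data.

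All members, and in each partner list the genes called plus those of smallest p up to 2, were named, with the 5 genes most correlated with Ptprc and Casp6; some genes that this rule names are not reported here. Sema4d, Cd200 and the values of Ltc4s and Cd84 outside the depots of their calls were added after their values were seen. The members and lists were chosen with earlier results of these data known. Whether replicate numbers pair the libraries is not known. Same-numbered WT and C6KO libraries had mean correlations of deviations of 0.046, 0.066 and -0.26 for iWAT, eWAT and BAT. Other-numbered ones had -0.023, -0.033 and 0.13. Between depots, same-numbered libraries had 0.096 (eWAT and iWAT), 0.053 (BAT and iWAT) and 0.012 (BAT and eWAT). Other-numbered ones had -0.048, -0.027 and -0.0058. Deviations were taken within each group, which ties the other-numbered mean to the same-numbered mean. These values therefore cannot decide whether a number marks a shared animal. Promoter sequences are from RefSeq.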

Additional observations from a re-analysis of the deposited data

How the results depend on the processing

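The median log2 difference of the members kept its direction under every alternative run. Leaving out 1 library at a time, it was between -2.18 and -1.17 in iWAT, between -0.77 and -0.52 in eWAT and between -1.89 and -1.60 in BAT; the lowest iWAT value came without the C6KO replicate 3. The median change relative to Ptprc lay between -0.29 and -0.11 in iWAT, between -0.21 and 0.029 in eWAT and between -0.40 and 0.36 in BAT, so that its sign was not settled in eWAT or BAT. In iWAT it was -0.38 against the pan-leukocyte list and -0.35 without Evi2 and Evi2b, an alternative chosen after seeing the data. The choice of the members for their fall favours a lower value against that list. Partner genes called lower numbered 31, 4 and 45 with DESeq2 in iWAT, eWAT and BAT, 18 in iWAT and 25 in BAT with all 18 libraries in 1 fit, and 2 in eWAT with no filter on low counts. Leaving out 1 library gave 0 to 57 for iWAT, 0 to 2 for eWAT and 3 to 12 for BAT; in iWAT only the C6KO replicate 3 changed the count of 0, in eWAT only the C6KO replicate 2, and in BAT the count was 9, 12 and 9 without WT replicates 1, 2 and 3 and 6, 4 and 3 without C6KO replicates 1, 2 and 3. With the replicate number as a block, 3, 5 and 7 partner genes were called lower in iWAT, eWAT and BAT and 2 had an effect that differed between depots; the numbers are not known to pair the libraries. The replicate block left 10, 9 and 10 members called for eWAT against iWAT, BAT against iWAT and BAT against eWAT and 0 members called for variation with Ptprc. Partner genes whose effect differed between depots numbered 6 with DESeq2 and 0 to 24 leaving out 1 library, with 24, 3 and 1 without the C6KO replicates 3, 2 and 1 of iWAT and 1 without the C6KO replicate 3 of eWAT or the WT replicate 2 of BAT. Leaving out 1 library, the members called between depots numbered 10 for eWAT against iWAT, 7 to 9 for BAT against iWAT and 10 for BAT against eWAT. The difference of Cd72 between BAT and iWAT ran from -0.37 to 0.078, the latter without the C6KO replicate 3 of iWAT, and that of Nf1 between genotypes in eWAT from -0.084, without the C6KO replicate 1, to 0.15; neither passed in any fit. No member varied with Ptprc past the threshold under any alternative, among them Spearman's rho, other scalings and a prior count of 5; counts of calls within 1 depot were not run, since 36 arrangements cannot pass the adjustment. The cause of these changes was not tested. The 7803108 to 12428683 counts of the BAT libraries limited Stap1 and Cd200r1 there, which a minimum of 10 counts in every library removed.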
